A study of Mus musculus with 10 samples.

Results

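The genes of the unfolded protein response and the integrated stress response were followed in left ventricle of mice that lack the melanocortin 4 receptor (Mc4r) and of wild type mice. The 37 members were chosen by symbol: 14 chaperones and folding enzymes of the endoplasmic reticulum (ER), 3 genes of ER-associated degradation (ERAD), 7 stress sensors and transcription factors, and 13 genes of the kind that ATF4 activates. All 37 have a row among the 24160 of the table, and 36 reached the mean of 1 normalized count that was asked for a test. Polyadenylated RNA came from the posterior wall of the left ventricle of C57BL6/J mice aged 30 weeks, from 6 MC4R-/- and 4 WT libraries, bred from heterozygous parents and kept at 24 °C. The labels give no sex and no treatment, do not say in which cells the receptor is lost, and do not state that each library is 1 animal, so the spread behind each p-value may be technical. The series is titled as a study of dilated cardiomyopathy in these knockout mice, and the receptor is a G-protein-coupled receptor known for the control of food intake.

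When unfolded proteins gather in the ER, the chaperone BiP leaves the membrane sensors IRE1 (Ern1), PERK (Eif2ak3) and ATF6. IRE1 splices the mRNA of Xbp1, and XBP1 and cleaved ATF6 then raise transcription of chaperones and of ERAD, which returns misfolded proteins to the cytosol for destruction. PERK, like other kinases of the initiation factor eIF2, slows translation but favours that of ATF4, which activates genes of amino acid synthesis and of cell stress. In muscle this second arm is also known to respond to mitochondrial defects, with Fgf21 and Gdf15 as secreted products. The table counts whole genes, so it shows neither the splicing of Xbp1 nor the cleavage of ATF6, the phosphorylation of eIF2 or the translation of Atf4.

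The reference promoters show which members carry the known DNA elements of the 2 arms, and they are given here because the members are grouped by these factors. Searches covered both strands. For 34 of the 37 members RefSeq start sites of GRCm38.p6 gave a window of 300 bases, 250 before and 50 after the start, some with several windows. The ER stress response element (ERSE), CCAAT and CCACG parted by 9 bases of any kind, was found in 7 members, all of them chaperones or folding enzymes, and in 0.119% of all 32851 promoter windows. Capitals mark the fixed letters, and each match is written in the direction of the element.
Hspa5: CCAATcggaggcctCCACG
Calr: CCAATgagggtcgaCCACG
Hsp90b1: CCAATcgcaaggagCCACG
Hsp90b1: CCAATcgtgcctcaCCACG
Canx: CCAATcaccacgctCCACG
Pdia6: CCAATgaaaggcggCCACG
Dnajc3: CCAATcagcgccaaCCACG
Creld2: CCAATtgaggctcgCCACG

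The shorter element ERSE-II, ATTGG and CCACG parted by 1 base, was found in Herpud1 and Dnajb11 and in 0.0365% of all windows. It shares part of its letters with ERSE, but no member window held both. The match in Dnajb11 lies after the start site. The element UPRE, TGACGTGG, was found in 0 members and in 0.676% of all windows.
Herpud1: ATTGGgCCACG
Dnajb11: ATTGGcCCACG

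The composite element of C/EBP and ATF factors (CARE), TGATGNAAN, was found in 6 members and in 3.95% of all windows. Of the 6, 5 are ATF4-type targets and the other is Herpud1, which thus holds an element of each arm. The match in Trib3 lies after the start site.
Chac1: TGATGcAAc
Trib3: TGATGtAAa
Asns: TGATGaAAc
Fgf21: TGATGcAAt
Herpud1: TGATGcAAc
Pycr1: TGATGcAAt

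The whole upstream stretches of 3 members place these matches, in capitals, in their surroundings. The CARE matches of Herpud1 and Chac1 lie on the opposite strand and so appear as their reverse complement. Hspa5 is shown as the ERSE gene with the most counts, Herpud1 as the member with both kinds of element, and Chac1 as the CARE gene with the largest fold change below. Each runs 5′ to 3′ on the plus strand, from chr2:34771840-34772089 for Hspa5, chr8:94386179-94386428 for Herpud1 and chr2:119350992-119351241 for Chac1 (GRCm38.p6, 250 bases ending at the base before the start site). A match is a description of letters and not a bound site.
Hspa5: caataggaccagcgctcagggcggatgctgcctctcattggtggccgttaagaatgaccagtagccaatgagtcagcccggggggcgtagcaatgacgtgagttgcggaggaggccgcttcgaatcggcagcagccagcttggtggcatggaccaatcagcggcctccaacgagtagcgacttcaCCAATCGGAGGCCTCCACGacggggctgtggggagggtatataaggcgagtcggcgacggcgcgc
Herpud1: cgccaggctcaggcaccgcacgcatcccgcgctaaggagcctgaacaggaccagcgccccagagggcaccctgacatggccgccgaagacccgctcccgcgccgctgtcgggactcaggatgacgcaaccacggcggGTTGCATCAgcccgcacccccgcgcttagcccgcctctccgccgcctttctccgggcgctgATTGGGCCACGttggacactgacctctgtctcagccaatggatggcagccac
Chac1: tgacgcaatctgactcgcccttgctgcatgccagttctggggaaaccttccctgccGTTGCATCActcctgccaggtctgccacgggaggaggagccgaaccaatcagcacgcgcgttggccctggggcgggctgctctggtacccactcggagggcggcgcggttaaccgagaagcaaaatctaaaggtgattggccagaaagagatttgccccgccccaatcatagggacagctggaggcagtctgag

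Depth and library composition limit what can be seen. The libraries held 4145033 to 6425785 reads in genes, the fewest in WT replicate 3. Mc4r had 4 reads over the 6 MC4R-/- and 2 over the 4 WT libraries, so the targeted gene checks no label. Cardiomyocyte markers were abundant in all libraries (summed 406545 to 474837 normalized counts over 8 genes). WT replicate 2 stood apart, with 701 normalized counts over 5 T cell markers against 4.15 to 23.1 in the other 9 libraries, and 134 for Xist against 0 to 7.92. MC4R-/- replicate 5 had 3155 over 4 atrial markers, against 504 to 1338 in the others. Markers of B cells and of plasma cells, secretory cells rich in ER chaperones, summed to 55.4 to 75.8 over 8 genes in all 10 libraries, mostly from Sdc1 (29.4 to 58.0), with 4 genes above and 4 below WT in mean log2 value and 0 past the threshold. The plasma cell genes Mzb1 (0 to 3.91 in MC4R-/-, 2.71 to 9.62 in WT, log2 fold change -1.28, limma, unadjusted p = 0.0234, adjusted p = 0.409) and Jchain (0 to 5.06 and 2.64 to 5.42, -1.07, limma, unadjusted p = 0.0552, adjusted p = 0.538) leaned to WT, the direction of the chaperones below. They had at most 10 and 6 reads in a library, and their part in the chaperone values was not tested. In the same list Pou2af1 (log2 fold change 0.48) and Sdc1 (0.08) were above 0. Fibroblast markers leaned to the knockout, higher in mean log2 value for 6 of 6 genes with 1, Lum, past the threshold (summed 5426 to 6165 in MC4R-/- and 4669 to 5574 in WT), and so did macrophage markers, higher for 6 of 7 with 0 past it (1337 to 1724 and 1033 to 1326). In bulk tissue fewer cells of a type and less RNA per cell cannot be told apart.

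None of the 36 tested members differed between the genotypes at an adjusted p of 0.05 (0 by limma with Benjamini-Hochberg adjustment over 14611 genes, 0 by edgeR and 0 by DESeq2). Of all genes tested, 0.459% did by limma and 0.411% by edgeR. By DESeq2 it was 1.01% of the 11724 genes to which it gave an adjusted p. At an unadjusted p below 0.05 there were 3 members by limma and 5 by each of the other tools. The 3 by limma, or 8.33% of the members, compare with 9.6% of all genes tested. For edgeR and DESeq2 the share of all genes at that p is not given here, so their 5 cannot be judged against it. The libraries of the genotypes did not overlap for 1 member, Psat1 (2.28% of all genes tested). Fold changes are MC4R-/- over WT on the log2(normalized count + 1) scale, which understates low genes. The median was -0.08 over the members and -0.01 over all genes tested, and 29 of the 36 members were below 0, against 51.6% of all genes. Leaving out WT replicate 2 gave the smallest adjusted p of any member in any setting, 0.0932 for Hsp90b1 (limma).

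A missed threshold does not show equal expression, so the intervals matter. The 95% interval of the fold change, not adjusted for the number of genes, lay within 1.5-fold in either direction for 26 of 36 members. It did so for 9575 of all 14611 genes tested. The median level was 213 normalized counts over the members and 95.8 over all genes tested. Among the 26 were all 25 members with a mean of at least 50 normalized counts. Of the 11 members below that mean, 10 had intervals reaching beyond 1.5-fold: Sdf2l1 and 9 ATF4-type targets. For those genes a change of 1.5-fold lies within what this depth and number of libraries allow.

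**Figure D1:**
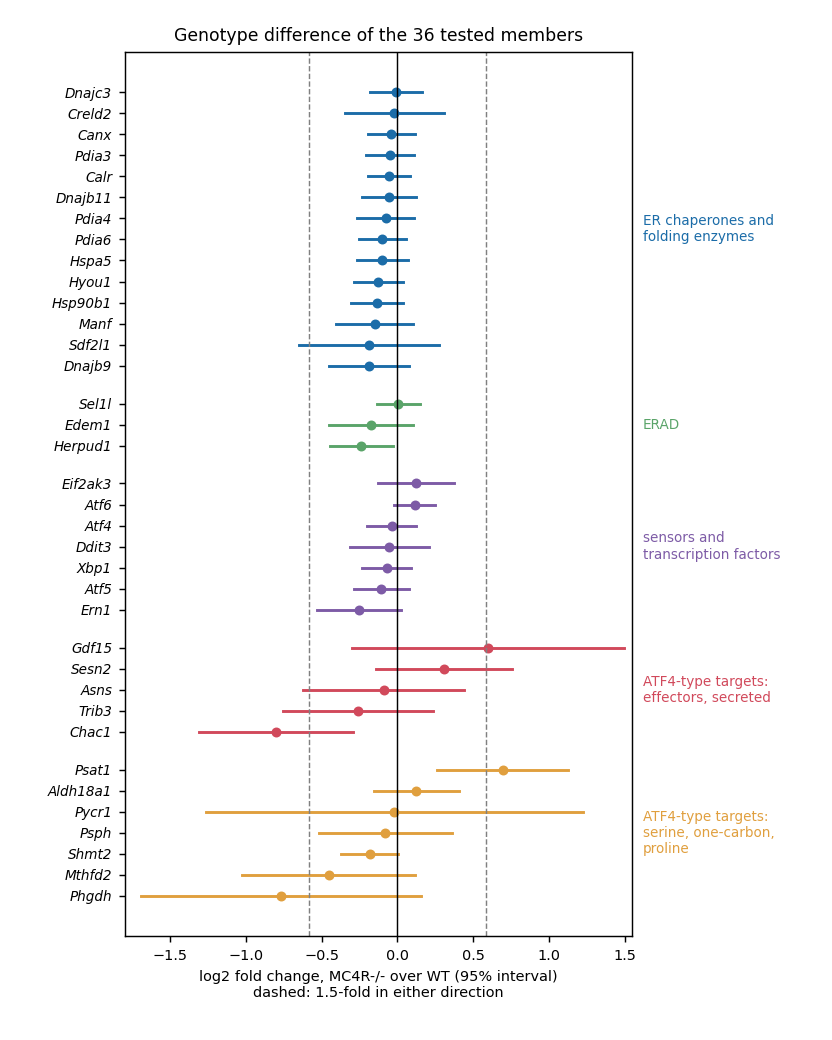
Log2 fold change of each tested member, MC4R-/- over WT (n = 6 and 4), with its 95% interval (limma), grouped by role and coloured by group. The intervals of the 14 ER chaperones and folding enzymes all include 0, while those of Chac1 (-1.31 to -0.29), Herpud1 (-0.45 to -0.03) and Psat1 (0.26 to 1.12) do not.

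No ER chaperone or folding enzyme passed the threshold, and the 2 most abundant members, Hspa5 and Hsp90b1, belong here. Per kilobase of the longest matched transcript, the mean level was 1600.1 normalized counts for Hspa5, 977 for Hsp90b1, 828.6 for Calr, 544 for Canx and 404 for Pdia3, and from 20.6 (Sdf2l1) to 280.0 (Pdia6) for the other 9. All 14 had a log2 fold change below 0, from -0.19 to -0.01 with a median of -0.09, and 0 had an unadjusted p below 0.05 by limma. Without WT replicate 3 the median was -0.02 and 9 of 14 were below 0. Without WT replicate 2 it was -0.165 with 14 of 14 below 0.

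Hspa5 encodes BiP, the HSP70 chaperone that also holds the sensors inactive (chromosome 2, 34772090 to 34776529). Its 4 WT values were 4284, 3617, 5233 and 4355 normalized counts in replicates 1 to 4, and the MC4R-/- values ran from 3692 through a median of 4124 to 4489. The WT libraries thus spanned the whole knockout range and reached beyond it on both sides. The means were 4054 ± 311 (SD, n = 6) in MC4R-/- and 4372 ± 663 (SD, n = 4) in WT, and the log2 fold change was -0.10 ± 0.08 (SE; limma, adjusted p = 0.750). It was -0.19 without WT replicate 2 and -0.01 without WT replicate 3.

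Hsp90b1, the ER member of the HSP90 family (GRP94), had 2872, 2297, 3492 and 3074 normalized counts in WT and 2496 to 2760.2, median 2675, in MC4R-/-. WT replicate 2 alone lay below the knockout range and the other 3 WT libraries above it. With all libraries the log2 fold change was -0.13 ± 0.08 (limma, adjusted p = 0.657). Without WT replicate 2 it was -0.25 ± 0.07 (limma, adjusted p = 0.0932), and without WT replicate 3 it was -0.04 (adjusted p = 0.903). Hyou1, a large HSP70-like chaperone and exchange factor of BiP, had 332, 301, 352 and 376 in WT and 301 to 322 in MC4R-/-, so WT replicate 2 lay inside the knockout range and the other 3 above it. Its log2 fold change was -0.13 ± 0.08 (limma, adjusted p = 0.665), -0.18 without WT replicate 2 and -0.08 without WT replicate 4. The groups of Hsp90b1 and Hyou1 did not overlap without WT replicate 2, as for 4.79% of all genes tested in that setting.

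The lectin chaperones of the calnexin cycle, which hold glycoproteins during folding, overlapped between genotypes. Calr had 1663, 1730.4, 2106 and 1919 normalized counts in WT and 1717 to 1836 in MC4R-/-, a log2 fold change of -0.05 ± 0.07. Canx had 2395, 2035, 2626 and 2428 in WT and 2032 to 2559 in MC4R-/- (-0.04 ± 0.08). Their oxidoreductase partner Pdia3 had 1094, 997, 1307 and 1177 against 1014 to 1229.6 (-0.05 ± 0.08). The 3 adjusted p were 0.861, 0.913 and 0.893 (limma).

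The disulfide isomerase Pdia6 averaged 591 ± 15.9 normalized counts in MC4R-/- and 636 ± 77.6 in WT, where replicate 4 had 729.9 and replicate 2 had 556. Pdia4, another disulfide isomerase, averaged 215 ± 14.4 and 228 ± 24.2. Its row also carries the microRNA gene Mir704, so the reads of the 2 cannot be told apart. Neither passed (limma, adjusted p = 0.736 and 0.849). The log2 fold change of Pdia6, -0.10, was -0.16 without WT replicate 2 and -0.03 without WT replicate 4, and that of Pdia4, -0.08, was -0.15 without WT replicate 2 and -0.03 without WT replicate 3.

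The J-domain cochaperones, which drive the ATP cycle of BiP, overlapped between genotypes. Dnajb9, a target of XBP1, had 321, 295, 386 and 358 normalized counts in WT and 229 to 376 with a median of 285 in MC4R-/-. Its log2 fold change was -0.19 ± 0.13 (limma, adjusted p = 0.696), and -0.11 without MC4R-/- replicate 6. Dnajb11 averaged 314 ± 8.92 in MC4R-/- and 329 ± 49.4 in WT. Dnajc3, which also restrains PERK, averaged 434 ± 36.2 and 438 ± 53.1, with the fold change nearest to 0 in the group (-0.01).

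The other 3 are ER proteins known to be induced by ER stress. Manf, a secreted factor that binds BiP, had 201, 167, 295 and 225 normalized counts in WT and 169 to 223 in MC4R-/-, so WT replicates 2 and 3 lay on either side of the knockout range. Creld2 showed the same split more sharply, with 53.3 in WT replicate 2 and 114 in WT replicate 3 around 69.2 to 90.5 in MC4R-/-. The log2 fold changes of Manf and Creld2 were -0.28 and -0.22 without WT replicate 2, and -0.003 and 0.14 without WT replicate 3. Sdf2l1, a partner of BiP complexes, was the lowest of the 14, at 21.8 ± 5.44 in MC4R-/- and 24.4 ± 3.47 in WT. Its interval, -0.65 to 0.28, was the 1 of the group that went past 1.5-fold. Its log2 fold change of -0.19 was -0.10 without MC4R-/- replicate 2.

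Many chaperones were high or low in the same WT libraries. Of the 14, 10 were highest in WT replicate 3 and 3 in WT replicate 4, while 6 were lowest in WT replicate 2. As the deviation of log2(normalized count + 1) from each gene's mean, the median over the 14 was 0.225 in WT replicate 3, 0.08 in WT replicate 4, 0.04 in WT replicate 1 and -0.145 in WT replicate 2. The 6 MC4R-/- libraries lay between -0.08 and 0.06. The SD between WT libraries was larger than that between MC4R-/- libraries for 12 of 14 chaperones, against 54.3% of all genes tested. The highest and the lowest of these medians were in WT replicates 3 and 2. WT replicate 2 is the library with T cell transcripts and WT replicate 3 the one with the fewest reads, and the part of either in this spread was not tested. Among all genes tested, 14.7% were highest in WT replicate 3, 7.36% in WT replicate 4 and 16.5% in WT replicate 2. The share of all genes lowest in WT replicate 2 was not counted.

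**Figure D2:**
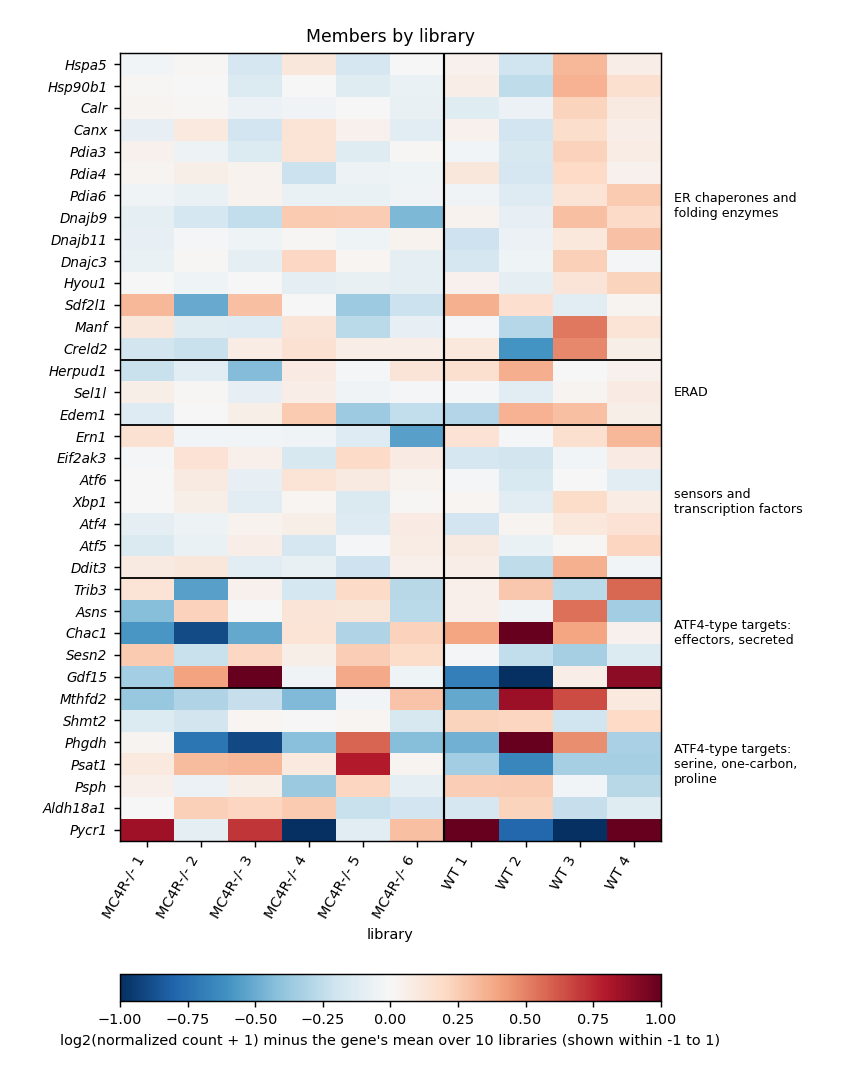
Deviation of each tested member's log2(normalized count + 1) from its mean over the 10 libraries, with members in rows by role and libraries in columns (colours limited to -1 to 1). Most ER chaperones are above their mean in WT replicate 3 (13 of 14) and below it in WT replicate 2 (13 of 14), and Herpud1, Edem1, Chac1, Mthfd2, Phgdh and Psph are highest in WT replicate 2.

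Covariation was measured for 9 pairs of members over the 10 libraries, after removal of the genotype mean. The permutations moved these deviations freely over all 10 libraries, as if both genotypes had the same spread. The permutation p-values are therefore approximate and may be too small. Hspa5 and Hsp90b1 were correlated (Pearson r = 0.92, permutation p = 0.0004, adjusted p = 0.0036 over the 9 pairs, and Spearman rho = 0.76, permutation p = 0.015, adjusted p = 0.0918). Without WT replicates 2 and 3, the libraries farthest from the median of Hspa5, r was 0.76. The factor Atf6 and Hspa5 had r = 0.68 (permutation p = 0.0301, adjusted p = 0.102, and rho = 0.73, permutation p = 0.0204, adjusted p = 0.0918), and 0.41 without its farthest libraries. Ddit3 and its known target Trib3 had a negative value (r = -0.67, permutation p = 0.0341, adjusted p = 0.102, and rho = -0.66, permutation p = 0.0438, adjusted p = 0.132), and r was -0.62 without WT replicates 2 and 3.

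The other 6 pairs had r from -0.11 to 0.53, none past an adjusted p of 0.05 (permutation test). Atf4 and its target Asns had r = -0.04 (permutation p = 0.909, adjusted p = 0.909, rho = -0.15, p = 0.68, adjusted p = 0.765), and Atf4 and Mthfd2 r = 0.53 (permutation p = 0.119, adjusted p = 0.268, rho = 0.32, p = 0.365, adjusted p = 0.765), which was 0.20 without MC4R-/- replicate 5 and WT replicate 1. Xbp1 and Dnajb9 had r = 0.14 (permutation p = 0.689, adjusted p = 0.899, rho = 0.25, p = 0.493, adjusted p = 0.765). Phgdh and Psat1, successive enzymes of serine synthesis, had r = -0.08 (permutation p = 0.799, adjusted p = 0.899, rho = -0.19, p = 0.607, adjusted p = 0.765). Without WT replicate 2 it was 0.45, and without MC4R-/- replicate 5 as well -0.67. Hspa5 and Herpud1, both induced by ER stress, had r = -0.11 (permutation p = 0.757, adjusted p = 0.899, rho = -0.08, p = 0.839, adjusted p = 0.839), and 0.56 without WT replicates 2 and 3. Eif2ak3 and Atf4 had r = 0.13 (permutation p = 0.729, adjusted p = 0.899, rho = 0.24, p = 0.516, adjusted p = 0.765). The low counts of Asns, Mthfd2, Phgdh and Psat1, and of Trib3 in the pair with Ddit3 above, limit such values.

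**Figure D3:**
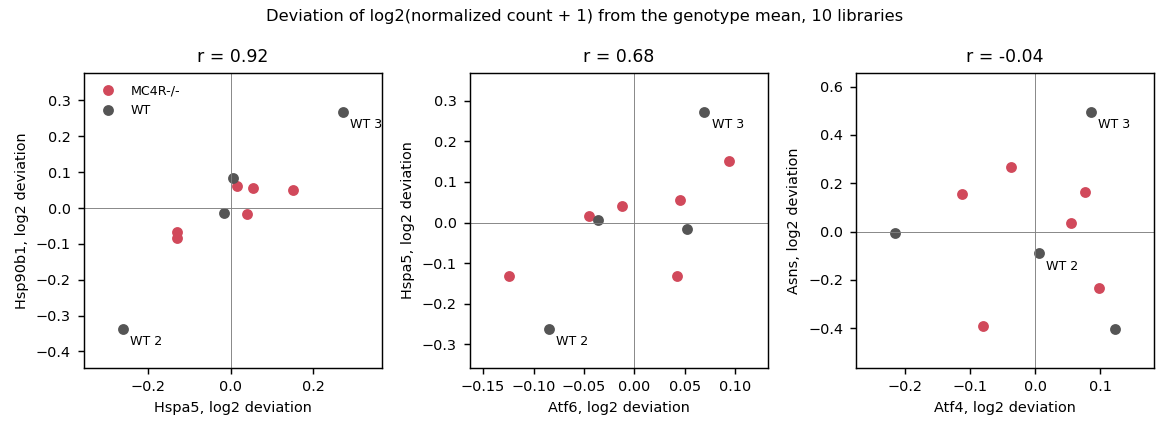
Deviation from the genotype mean of log2(normalized count + 1) for 3 pairs of members, 1 point per library (red MC4R-/-, grey WT, WT replicates 2 and 3 named). Hspa5 and Hsp90b1 lie along a line (r = 0.92) whose ends are WT replicates 2 and 3, Atf6 and Hspa5 less so (0.68), and Atf4 and Asns show no trend (-0.04).

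Of the 3 ERAD members, Herpud1 and Edem1 were highest in WT replicate 2, and none passed. Herpud1, a membrane protein that assembles the retrotranslocation complex (chromosome 8, 94386429 to 94395371), had 1905, 2191, 1706 and 1758 normalized counts in WT and 1258 to 1866, median 1629, in MC4R-/-. The WT values sat at the upper end of the knockout range or above it, with the highest in WT replicate 2, where 13 of 14 chaperones were below their mean. The means were 1607 ± 226 in MC4R-/- and 1889.9 ± 218 in WT, a log2 fold change of -0.24 ± 0.10 (limma, unadjusted p = 0.0256, adjusted p = 0.421). Without WT replicate 2 it was -0.17 ± 0.09 (adjusted p = 0.588). Edem1, a lectin that picks misfolded glycoproteins, had 98.1, 153, 148 and 125 in WT and 93.2 to 144 in MC4R-/- (-0.17 ± 0.13, -0.30 without WT replicate 1 and -0.09 without WT replicate 2). Sel1l, the scaffold of the ligase HRD1, averaged 660.0 ± 25.5 and 658 ± 36.5, a log2 fold change of 0.01 ± 0.07 with an interval of -0.14 to 0.15.

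Among the sensors, Ern1 had 93.3, 83.0, 94.1 and 107 normalized counts in WT and 57.6 to 93.9 in MC4R-/-, with the lowest value in MC4R-/- replicate 6 (log2 fold change -0.25 ± 0.14, and -0.17 without that library; limma, adjusted p = 0.587). Eif2ak3 averaged 86.3 ± 7.43 in MC4R-/- and 79.2 ± 7.01 in WT (0.12 ± 0.12). Atf6 was the most abundant of the 3 per kilobase, at 193 against 18.5 for Eif2ak3 and 12.3 for Ern1. It had 1382, 1257, 1398 and 1299.5 in WT and 1323 to 1539, median 1458, in MC4R-/-, so the groups overlapped in part (0.11 ± 0.07, interval -0.02 to 0.25; limma, adjusted p = 0.622).

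The transcription factors downstream were close in mean. Xbp1 averaged 399.9 ± 22.1 normalized counts in MC4R-/- and 421 ± 34.5 in WT, and Atf4 470.4 ± 28.7 and 485 ± 49.0. For Atf4 the WT values of 416, 485, 512 and 525.6 enclosed the knockout range of 435 to 503. Atf5, a factor tied to mitochondrial stress, averaged 229.8 ± 16.4 and 248 ± 21.0. Ddit3, which encodes the pro-apoptotic factor CHOP, had 101, 80.3, 123 and 94.2 in WT and 83.1 to 104 in MC4R-/-, again with WT replicates 2 and 3 at the extremes. The adjusted p of these 4 ran from 0.759 to 0.930 (limma). Their log2 fold changes ran from -0.11 to -0.04, and with 1 library left out from -0.15 to 0.05.

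The ATF4-type targets were mostly low, with levels of 1.07 to 24.7 normalized counts per kilobase for 11 of 13, 129 for Shmt2 and no read for Fgf21. Of the 12 tested, 8 had a log2 fold change below 0 and 4 above it, and 0 passed. The median was -0.09 over the stress effectors and -0.08 over the synthesis enzymes. Psat1 and Chac1, the 2 with the smallest p, had opposite signs.

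Chac1 encodes an enzyme that breaks down glutathione, and its mRNA is among the strongest targets of ATF4 and CHOP (chromosome 2, 119351242 to 119354326). It had 31.7, 52.4, 31.8 and 24.7 normalized counts in WT and 12.4 to 28.3, median 17.9, in MC4R-/-. WT replicate 4 lay inside the knockout range, the other 3 WT libraries above it. The means were 19.8 ± 6.31 (SD, n = 6) and 35.1 ± 12.0 (SD, n = 4), and the log2 fold change was -0.80 ± 0.25 (limma, unadjusted p = 0.00333, adjusted p = 0.198). Without WT replicate 2 the WT mean was 29.4 ± 4.12 and the fold change -0.60 ± 0.26 (adjusted p = 0.413).

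The other stress effectors had smaller differences or wide intervals. Trib3, a pseudokinase that feeds back on the response, had 19.2, 22.6, 15.2 and 28.2 normalized counts in WT and 12.4 to 21.3 in MC4R-/- (-0.26 ± 0.24, -0.40 without WT replicate 3 and -0.12 without WT replicate 4). Asns, asparagine synthetase and a standard ATF4 target, averaged 14.6 ± 2.65 and 15.9 ± 4.52 (-0.09 ± 0.26). Sesn2, a leucine sensor upstream of mTORC1, was higher in mean, with 16.5 to 23.5, median 22.4, in MC4R-/- and 19.2, 16.2, 15.2 and 17.6 in WT. Of the knockout libraries, replicate 2 alone lay within the WT range (0.31 ± 0.22; limma, adjusted p = 0.711).

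The secreted factors were barely detected. Fgf21, a hormone that stressed muscle can release, had 0 reads in all 10 libraries, which at 3 reads per library allows a level of up to 2.61 to 4.15 normalized counts. Gdf15, a stress cytokine that lowers appetite through a hindbrain receptor, had 2.89, 0.903, 5.54 and 10.6 in WT and 3.91 to 12.2 in MC4R-/-. Its log2 fold change of 0.60 ± 0.44 had an interval from -0.30 to 1.49, and it was 0.15 without WT replicate 2 and 1.01 without WT replicate 4.

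Psat1 was the member with the smallest p. It encodes phosphoserine aminotransferase, the second step of serine synthesis (chromosome 19, 15905123 to 15925059). Its 6 MC4R-/- values ran from 25.3 through a median of 28.7 to 43.6 normalized counts, and its WT values were 19.2, 15.3, 19.4 and 19.4, so every knockout library was above every WT library. The means were 30.7 ± 6.81 (SD, n = 6) and 18.3 ± 1.99 (SD, n = 4), and the log2 fold change was 0.69 ± 0.21 (limma, unadjusted p = 0.00271, adjusted p = 0.182). The adjusted p stayed above 0.05 in each of the 21 other settings, from 0.167 to 0.485. Neither of its 2 promoter windows held any of the 4 elements.

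The enzymes on either side of it had fold changes below 0. Phgdh, the first and rate-limiting step, had 3.85, 29.8, 8.31 and 4.40 normalized counts in WT and 2.61 to 9.12, median 4.05, in MC4R-/-. The WT mean rested on a single library, replicate 2 (log2 fold change -0.77 ± 0.45, and -0.20 ± 0.43 without it). Psph, the last step, averaged 22.3 ± 3.03 and 23.7 ± 4.14 (-0.08 ± 0.21, and -0.19 without WT replicate 4 and -0.01 without WT replicate 2).

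The mitochondrial folate enzymes were lower in mean in the knockout, and neither passed. Mthfd2, little expressed in most adult tissue and high in dividing cells, had 10.6, 28.9, 24.9 and 16.7 normalized counts in WT and 11.2 to 19.2 in MC4R-/- (-0.45 ± 0.28, -0.26 ± 0.30 without WT replicate 2 and -0.72 without WT replicate 1). Shmt2, which splits serine to feed that pathway, had 342, 340.3, 255 and 337 in WT and 257 to 298 in MC4R-/-. WT replicate 3 lay just below all 6 knockout libraries, and the other 3 WT libraries lay above all 6 (-0.18 ± 0.09; limma, adjusted p = 0.538). Without WT replicate 3 the fold change was -0.29 (adjusted p = 0.198).

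Of the proline enzymes, Aldh18a1 averaged 90.3 ± 13.6 normalized counts in MC4R-/- and 82.7 ± 12.5 in WT (0.12 ± 0.14, 0.22 without WT replicate 2 and 0.07 without WT replicate 3). Pycr1 was near the detection limit, at 0 to 4.89 and 0 to 7.70, and its interval of -1.27 to 1.22 was the widest of the members. Phgdh, Mthfd2, Chac1, Herpud1, Edem1 and Psph, 6 of the 36 tested members, were highest in WT replicate 2, as were 16.5% of all genes tested. That library held 701 normalized counts of T cell markers. The part of those cells in the 6 values was not tested. Without that library 0 members passed and 8 of 36 had an unadjusted p below 0.05 (limma), against 9.86% of all genes tested in that setting. The 8 were Psat1, Chac1, Ern1 and 5 chaperones, and without WT replicate 3 in its place the median of the chaperones was -0.02.

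**Figure D4:**
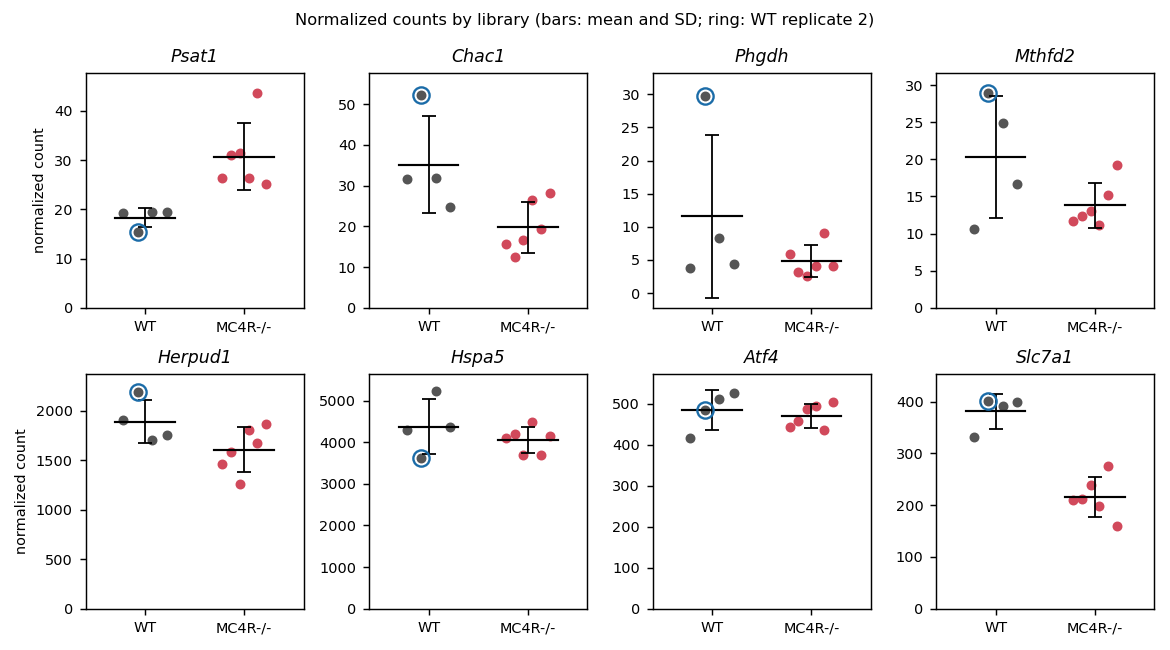
Normalized counts per library for 7 members and Slc7a1, with the mean and SD of 4 WT and 6 MC4R-/- libraries (the ring marks WT replicate 2). For Psat1 (25.3 to 43.6 against 15.3 to 19.4) and Slc7a1 (161 to 276 against 331 to 402) the groups do not overlap, for the other 6 they do, and WT replicate 2 is the highest WT value for Chac1, Phgdh, Mthfd2, Herpud1 and Slc7a1.

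The wider pathway was read from a list of 129 further genes, chosen with earlier results of these data known, of which 126 were tested. Of these 1 passed by limma, against 0.459% of all genes tested. That gene, lower in the knockout, was Slc7a1, the cationic amino acid transporter CAT-1, whose mRNA ATF4 can raise (chromosome 5, 148327410 to 148399904). It had 331, 402, 392 and 399.7 normalized counts in WT and 161 to 276, median 211, in MC4R-/-, with no overlap. The log2 fold change was -0.83 ± 0.11 (limma, adjusted p = 0.000622), and it passed in every setting but limma without its trend and robust steps (adjusted p = 0.167).

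Of the 37 tested genes among the other ATF4-type targets and tRNA synthetases, 18 were below 0 and 19 above it, and Slc7a1 alone passed. Eif4ebp1, a repressor of translation that ATF4 induces, had 376, 379, 349 and 366 normalized counts in WT and 243 to 356 in MC4R-/-, with MC4R-/- replicate 5 the 1 knockout library inside the WT range. Its log2 fold change of -0.37 ± 0.10 missed the threshold (limma, adjusted p = 0.115) and passed without that library. The proline dehydrogenase gene Prodh averaged 123 ± 19.7 and 155 ± 28.9 (limma, adjusted p = 0.354), and Aldh4a1, the next enzyme of proline breakdown, 1120.1 ± 39.0 and 1217 ± 52.2 (adjusted p = 0.588).

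None of the other 3 lists had a member past the threshold (0 by limma, 0 by edgeR and 0 by DESeq2). Among 34 further folding, glycan and translocon genes, 2 (5.88%) had an unadjusted p below 0.05 by limma, against 9.6% of all genes tested. Both were higher: the isomerase Txndc5 with 412 ± 32.1 normalized counts in MC4R-/- and 351 ± 44.2 in WT, and the translocon subunit Ssr2 with 222 ± 9.03 and 193 ± 13.9 (limma, adjusted p = 0.329 and 0.419). Pdia5, an isomerase that acts on ATF6, had 32.5 to 35.2 in WT and 22.7 to 30.3 in MC4R-/- (limma, adjusted p = 0.560). Its groups did not overlap, as for 2.28% of all genes tested. The collagen-folding isomerase Fkbp14 averaged 88.8 ± 15.8 and 73.1 ± 6.34 (adjusted p = 0.596). Fibroblast markers, which leaned the same way, are given above, and their part in Txndc5, Ssr2 and Fkbp14 was not tested.

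Among 22 tested ERAD genes 1 was higher and 1 lower at an unadjusted p below 0.05 by limma (9.09%, against 9.6% of all genes tested). Syvn1, the ligase HRD1 that Sel1l holds, averaged 141 ± 19.4 normalized counts in MC4R-/- and 165 ± 9.70 in WT (limma, adjusted p = 0.469), and the channel gene Derl2 209 ± 22.2 and 180.4 ± 13.6 (adjusted p = 0.493). Derl1 and the conjugating enzyme Ube2j1 came next, with adjusted p of 0.711 and 0.721. Among 33 further sensors, kinases and factors 1 was higher and 2 lower at that p (9.09%, against the same 9.6%). Creb3l2, an ER-bound factor relative of ATF6, averaged 148 ± 18.7 and 119 ± 17.6. The amino acid sensing eIF2 kinase Eif2ak4 (GCN2) averaged 62.3 ± 10.7 and 80.1 ± 4.56, and the kinase Map3k5 (ASK1), which acts after IRE1, 393 ± 23.7 and 449.6 ± 22.5. Wfs1, an ER membrane protein that restrains ATF6, averaged 939.9 ± 49.5 and 852 ± 78.8. Their adjusted p ran from 0.339 to 0.538 (limma).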

How the data were processed

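Polyadenylated RNA of 10 left ventricle libraries was sequenced after a stranded preparation from 200 ng of RNA, per the labels' protocols. The authors deposited 1 table of normalized signal per gene, keyed by RefSeq accessions. The submitters' processing notes name TopHat2 2.1.0, Cufflinks 2.2.1, Cuffnorm 2.2.1.1 and build mm10, without roles. Annotation and strand setting are not given in the sources used here, so overlapping genes cannot be told apart. Each value is a whole read count divided by a library factor, with no division by length (99.99 to 100% of values within 0.1 of a whole multiple).

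Symbols came from RefSeq GRCm38.p6 and GENCODE vM21 (24107 of 24160 rows). From the values, limma 3.58.1 in R 4.3.3 (trend and robust) was run on log2(normalized count + 1) for 14611 genes with a mean of at least 1, with Benjamini-Hochberg adjustment and a threshold of 0.05. edgeR 4.0.16 and DESeq2 1.42.0 were run on the recovered reads. Other settings were pseudocounts of 0.5 and 5, no filter and a mean of 10, TMM and quantile scaling, no trend, library weights, a replicate block, and each library left out. Pairs of members were tested by 100000 permutations.

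In simulated data of 14611 genes, limma found 42% of genes changed 1.3-fold, 80% of 1.5-fold and 96% of 2-fold. All changed genes had means of at least 50. It made 164 calls, 5 of them false, against 67 calls in the real data. The simulation drew each gene independently, with the same spread in both genotypes, so no library shifted many genes together. These rates may thus be too high for the members. The members and lists were chosen with earlier results of these data known. Named are all members, every further pathway gene past the threshold, and up to 4 genes of smallest p per further list.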

Additional observations from a re-analysis of the deposited data

Results flagged for a closer look

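In each genotype of each member, the highest and the lowest library were set against the others by Dixon's criterion at 95%. Of 72 groups of libraries, 4 held such a library, and chance flags about 1 in 20. Psat1 had 43.6 normalized counts in MC4R-/- replicate 5, against 25.3 to 31.4 in the other 5, and 15.3 in WT replicate 2, against 19.2 to 19.4 in the other 3. Without the first of these libraries its log2 fold change was 0.59, and without the second 0.61. Shmt2 had 255 in WT replicate 3, against 337 to 342 in the other WT libraries. Pdia6 had 621 in MC4R-/- replicate 3, against 579 to 592 in the other 5. Of the further pathway genes, the check is given here for Slc7a1 alone, and the other further genes named above may hold such libraries too. Slc7a1 had 331 in WT replicate 1, against 392 to 402 in the other 3, and that value was still above all 6 MC4R-/- libraries.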

How the results depend on the processing

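In all 21 alternatives 0 members passed the threshold, with 3 to 8 at an unadjusted p below 0.05. The share of all genes at that p is given only for the main limma fit (9.6%) and for limma without WT replicate 2 (9.86%). The further pathway genes gave 0 past it in limma without trend and robust steps, where Slc7a1 had -0.83 (adjusted p = 0.167), and 2 (Slc7a1 and Eif4ebp1) with library weights and without MC4R-/- replicate 5. With the replicate block there were 0 members and 2 further genes, the same 2, and the ERAD median was -0.0539. Same-numbered libraries of the genotypes did not deviate together (correlations -0.06, -0.03, -0.06 and -0.003). These values show no pairing by number but cannot exclude one with a small effect.

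Of 753 refitted member fold changes, 27 changed sign, in 11 genes. Outside of left-out libraries these were Dnajc3 (0.0118 with library weights, 0.00703 with the block), Creld2 (0.0063, quantile scaling), Sel1l (-0.0119 with quantile scaling, -0.0144 with library weights) and Pycr1 (0.0563, pseudocount 0.5). With 1 library left out, the medians ran from -0.165 to -0.0185 for chaperones, -0.239 to -0.0907 for ERAD, -0.121 to -0.0104 for sensors and factors, -0.145 to 0.0732 for stress effectors and -0.287 to -0.0124 for synthesis enzymes.

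The fold changes that changed sign in this way ranged from -0.104 to 0.0091 for Calr, -0.111 to 0.0113 for Canx, -0.112 to 0.0183 for Pdia3, -0.136 to 0.0305 for Dnajb11, -0.0668 to 0.0681 for Dnajc3, -0.223 to 0.136 for Creld2, -0.0294 to 0.0345 for Sel1l, -0.111 to 0.00193 for Atf4, -0.153 to 0.0509 for Ddit3, -0.225 to 0.0732 for Asns and -0.596 to 0.445 for Pycr1. The correlations ranged from -0.0793 to 0.512 for Xbp1 and Dnajb9, 0.566 to 0.808 for Atf6 and Hspa5, 0.853 to 0.949 for Hspa5 and Hsp90b1, -0.479 to 0.296 for Hspa5 and Herpud1, -0.337 to 0.251 for Atf4 and Asns, -0.0826 to 0.67 for Atf4 and Mthfd2, -0.801 to -0.468 for Ddit3 and Trib3, -0.796 to 0.454 for Phgdh and Psat1 and -0.16 to 0.395 for Eif2ak3 and Atf4. The Ddit3 pair passed without MC4R-/- replicate 1, and the Atf6 and Phgdh pairs without MC4R-/- replicate 5. Members under 50 normalized counts are limited by depth.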
